A study of Arabidopsis thaliana with 4 samples.

Results

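The genes described here are 10 loci of the jasmonate pathway of Arabidopsis thaliana: DAD1, LOX2, LOX3, LOX4, AOS, OPR3 and JAR1, which encode enzymes of synthesis, MYC2, which encodes the main transcription factor of the response, and VSP1 and VSP2, which encode vegetative storage proteins. They were picked out by locus identifier, from a list drawn up with earlier results of these data known, and all 10 were found among the 27322 gene models used. RNA came from shoot apices of inflorescences at 6 weeks, trimmed of their older flowers, from plants grown at 22°C with 16 h of light and 8 h of dark. The mutant genotype was mp clv3, which carries the alleles mp319 and clv3-7 in the genes MP and CLV3, and the control was Col-0, the wild type (WT). MP (MONOPTEROS) is an auxin response factor needed for flower initiation, and CLV3 encodes a peptide that restrains stem cell number in the shoot meristem. The labels list 2 biological replicates of each genotype, but the deposited table gives each genotype only 1 column of reads, and it is not stated whether that column sums both replicates or holds 1 of them. Every comparison below therefore rests on 1 authors' value per genotype, no difference could be tested against the spread between replicates, and the 95% intervals in parentheses cover counting error only.

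Jasmonates are lipid hormones made from linolenic acid of chloroplast membranes. A lipase releases the fatty acid, a 13-lipoxygenase, allene oxide synthase and allene oxide cyclase turn it into 12-oxophytodienoic acid (OPDA) in the chloroplast, and OPR3 and the enzymes of beta-oxidation finish jasmonic acid in the peroxisome. JAR1 then joins jasmonic acid to isoleucine, and the conjugate makes the receptor COI1 mark JAZ repressors for breakdown, which frees MYC2. In flowers the hormone is needed for stamen filaments to elongate and anthers to open, and in leaves it is made on wounding. VSP1 and VSP2 are long-used markers of jasmonate response in leaves and flowers.

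Summed reads came to 103347441 for mp clv3 and 101878433 for WT. MP was at 14.5 RPKM (reads per kilobase of model, scaled to the column's total) in mp clv3 against 46.1 RPKM in WT, and CLV3 had 1278 reads for mp clv3 and 2 for WT. Where the lesions lie in these transcripts is not stated in the labels, so neither level checks the genotype. Of 7 apex markers, all had reads in both columns, but 2 markers were near 0 in 1 column: CLV3 with its 2 reads in WT, and the floral gene AP1 with 20 reads for mp clv3 and 14281 for WT. The meristem genes STM and WUS were at 217 and 21.8 RPKM in mp clv3 against 68.8 and 2.34 RPKM in WT. KNAT1, another marker of this list, went the other way, at 11.3 RPKM in mp clv3 against 44.8 RPKM in WT. It was picked out after its values were seen. Of the 7 markers, 4 were at least 2-fold higher in mp clv3, 2 were at least 2-fold lower and 1 lay within 2-fold. Whole apices were measured, so fewer cells of a type and less RNA per cell cannot be told apart.

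The 10 genes were split by direction along the pathway. DAD1, LOX3, LOX4, AOS, OPR3, JAR1 and MYC2 were higher in mp clv3, whereas LOX2, VSP1 and VSP2 were lower. At a cutoff of 2-fold, 5 of the 10 were higher (DAD1, LOX4, AOS, OPR3 and MYC2), 3 were lower (LOX2, VSP1 and VSP2) and 2 lay within 2-fold (LOX3 and JAR1). Among the 23060 models with more than 6 reads in either genotype, 11.5% were at least 2-fold higher and 23.8% at least 2-fold lower. Every count of listed genes past 2-fold in this report is to be read beside these shares. The median log2 ratio of mp clv3 over WT was 1.01 over the 10 genes and -0.15 over those 23060 models. In the authors' deposited table all 10 had an FDR under 0.05, the largest being 2.36e-11 for DAD1, but so did 74.8% of all models, and the test behind that FDR is not stated.

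**Figure D1:**
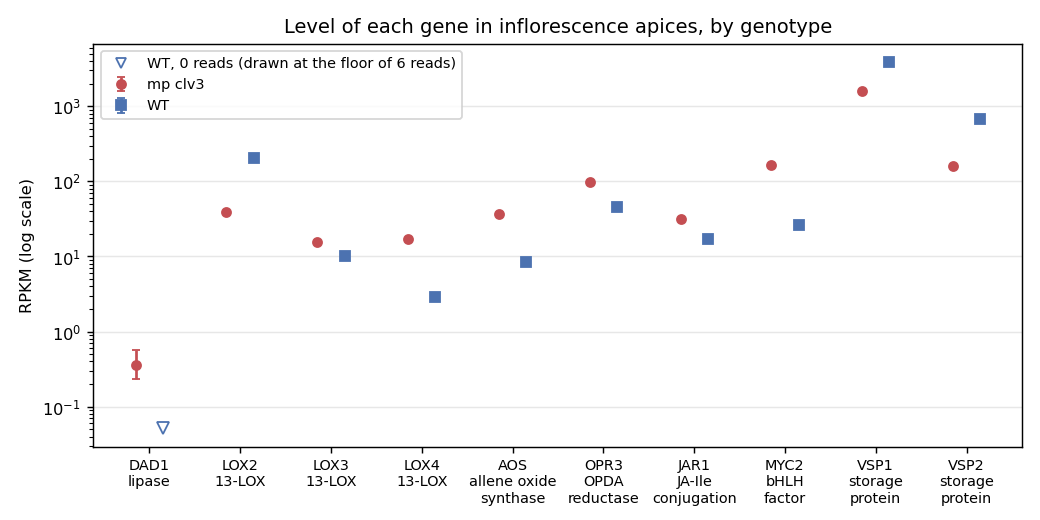
Level of each of the 10 genes in RPKM on a log scale, with mp clv3 (circles) to the left of WT (squares) and bars for the 95% counting interval, which is smaller than the symbol for most genes. The level of LOX2, VSP1 and VSP2 was lower in mp clv3, and that of the other 7 was higher, with DAD1 in WT at 0 reads and drawn at the floor of 6 reads.

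**Figure D2:**
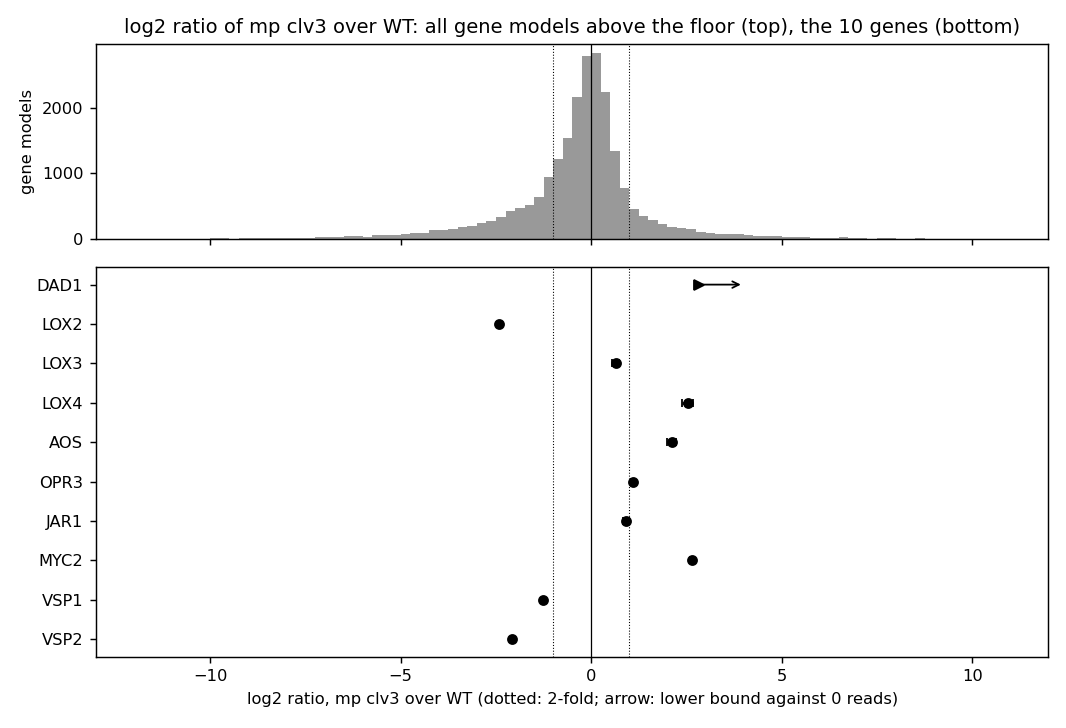
The log2 ratio of mp clv3 over WT, as a histogram of all 23060 models above the floor (top) and for the 10 genes with 95% counting intervals (bottom). Dotted lines mark 2-fold, and the arrow on DAD1 starts at its ratio against the floor of 6 reads, because WT had 0 reads. The lower end of its counting interval, 2.43, is not drawn. The 10 genes lie on both sides of 0, from -2.41 for LOX2 to 2.82 for DAD1.

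DAD1 (AT2G44810, 1 exon, TAIR10.1 chromosome 2, 18478374 to 18480457, plus strand) encodes a chloroplast lipase that releases linolenic acid in stamen filaments. It had 43 reads for mp clv3 and 0 for WT, the lowest level of the 10 genes in both genotypes. Its level was 0.363 RPKM (0.233 to 0.563) in mp clv3, and 0 reads in WT allow up to 0.0514 RPKM, taken at 3 read pairs or 6 reads. Against a WT level set at that floor, DAD1 was 7.07-fold higher in mp clv3. The lower end of the counting interval, taken on 22 read pairs against 0, was 5.40-fold. The count rests on 22 read pairs, and the difference was under 2-fold with 5 RPKM added to both levels (0.10 on the log2 scale). Of 5 listed lipases related to DAD1, DALL4 was 2.05-fold higher (1.85 to 2.27), DALL2 was 21.9-fold lower (11.5 to 42.5) and 3 lay within 2-fold. Over all 23060 models, 11.5% were at least 2-fold higher and 23.8% at least 2-fold lower, and counts of so few genes say little beside these shares. DGL, another lipase of this family, had 13 reads for mp clv3 and 0 for WT. DALL2 and DGL were picked out after their values were seen.

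The 13-lipoxygenase step differed in its make-up. LOX2 (AT3G45140, chromosome 3, 16525245 to 16529352 on the plus strand), the chloroplast 13-lipoxygenase that makes most of the jasmonate of wounded leaves, had 11433 reads for mp clv3 and 59872 for WT. These are 39.0 RPKM (38.0 to 40.0) in mp clv3 against 207 RPKM (204.8 to 209.5) in WT, so that LOX2 was 5.31-fold lower (5.16 to 5.47). LOX4 (AT1G72520, chromosome 1, 27308513 to 27312756 on the plus strand) went the other way, with 5313 reads for mp clv3 and 903 for WT, a 5.80-fold higher level (5.24 to 6.42). LOX3 (AT1G17420, chromosome 1, 5977323 to 5981521 on the plus strand) had 4788 reads for mp clv3 and 3035 for WT and was 1.56-fold higher (1.46 to 1.66). LOX3 and LOX4 act together in flowers, where plants lacking both are male-sterile. LOX6, the remaining 13-lipoxygenase, lay within 2-fold at 42.9 RPKM in mp clv3 against 27.9 RPKM in WT, and was picked out after its values were seen.

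Summed over these 4 genes, the 13-lipoxygenase level was 114.5 RPKM in mp clv3 against 248 RPKM in WT. LOX2 made up 34.1% of that sum in mp clv3 and 83.5% in WT, LOX4 made up 14.8% in mp clv3 and 1.18% in WT, and LOX6 made up 37.5% in mp clv3 and 11.3% in WT. The ratio of LOX2 to LOX4 within a genotype, which no scaling of the columns can move, was 2.31 in mp clv3 and 71.1 in WT. In mp clv3 the intervals of LOX3 (15.7 RPKM, 15.1 to 16.3) and LOX4 (16.9 RPKM, 16.3 to 17.6) overlapped, while in WT LOX3 was 3.46 times LOX4. The aligned parts of the LOX3 and LOX4 transcripts are 79.3% identical and share no word of 100 bases, the read length. The 9-lipoxygenase genes LOX1 and LOX5, whose products do not feed jasmonate synthesis, were also higher in mp clv3 but within 2-fold. Their log2 ratios were 0.74 (0.62 to 0.86) for LOX1 and 0.77 (0.65 to 0.89) for LOX5, against 0.64 (0.54 to 0.73) for LOX3.

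**Figure D3:**
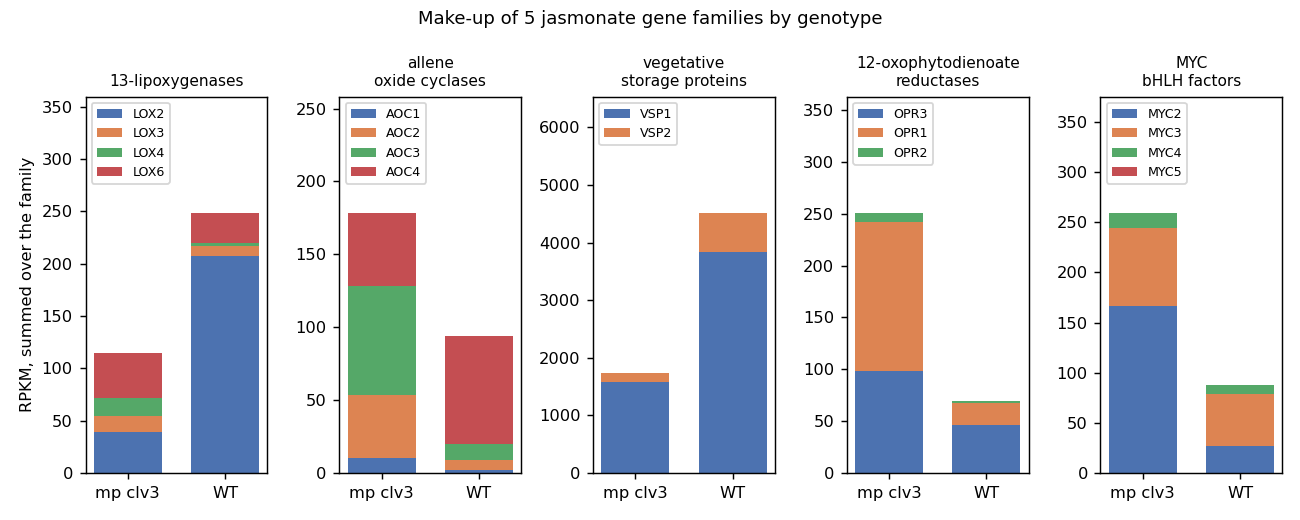
Level in RPKM summed over 5 jasmonate gene families, mp clv3 left of WT in each panel, with coloured segments for the genes and a separate linear axis for each family. The sums of the 13-lipoxygenases (114.5 against 248 RPKM) and storage proteins (1742 against 4507 RPKM) were lower in mp clv3, and those of the cyclases, reductases and MYC factors were higher.

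The next enzymes of the route were higher in mp clv3. AOS (AT5G42650, chromosome 5, 17097564 to 17099595 on the minus strand, 1 exon), the allene oxide synthase CYP74A, had 6802 reads for mp clv3 and 1553 for WT. Its level was 36.5 RPKM (35.3 to 37.8) in mp clv3 against 8.46 RPKM (7.88 to 9.09) in WT, 4.32-fold higher (3.99 to 4.67). OPR3 (AT2G06050, chromosome 2, 2359114 to 2362375 on the minus strand), the peroxisomal OPDA reductase without which stamens are sterile, had 15069 reads for mp clv3 and 6956 for WT. OPR3 was at 97.9 RPKM (95.7 to 100.1) in mp clv3 against 45.8 RPKM (44.3 to 47.4) in WT, 2.14-fold higher (2.05 to 2.22). Relative to AOS, LOX2 stood at 1.07 to 1 in mp clv3 and at 24.5 to 1 in WT.

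Between AOS and OPR3 act the allene oxide cyclases, which set the stereochemistry of OPDA. AOC3 was 6.68-fold higher (6.11 to 7.30), AOC2 6.47-fold (5.75 to 7.27) and AOC1 4.56-fold (3.73 to 5.61). AOC4, picked out after its values were seen, was at 49.9 RPKM in mp clv3 against 73.6 RPKM in WT, within 2-fold. AOC4 supplied 28.0% of the cyclase sum in mp clv3 and 78.5% in WT, and AOC3 supplied 41.9% in mp clv3 and 11.9% in WT. As with the lipoxygenases, the gene that led in WT was thus not the gene that led in mp clv3. Of the 14 other synthesis genes listed, 5 were at least 2-fold higher, 1 was lower and 8 lay within 2-fold, with a median log2 ratio of 0.36. The 5 were AOC1, AOC2, AOC3, DGL and OPCL1, the peroxisomal CoA ligase, which was 3.69-fold higher (3.49 to 3.89). The lower gene was FAD8, a chloroplast desaturase that makes linolenic acid, 4.50-fold lower (4.03 to 5.03). FAD3, FAD7, the acyl-CoA oxidases ACX1 and ACX5, the thiolase KAT2, the fatty acid importer PXA1, LOX6 and AOC4 were the 8. The cytosolic relatives of OPR3, OPR1 and OPR2, were 6.59-fold (6.25 to 6.94) and 4.75-fold (3.91 to 5.84) higher. OPR1 and OPR2 share 132 words of 100 bases, so their reads can be split between them.

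JAR1 (AT2G46370, chromosome 2, 19033586 to 19036683 on the plus strand), which makes the active isoleucine conjugate, had 7195 reads for mp clv3 and 3760 for WT. It was at 31.9 RPKM (30.9 to 33.0) in mp clv3 against 16.9 RPKM (16.2 to 17.7) in WT, 1.89-fold higher (1.78 to 2.00). JAR1 lay just under the cutoff here and just past it (1.01 on the log2 scale) when the columns were scaled by TMM or by DESeq2's size factors. Of 12 listed genes that remove or move the hormone, 8 were at least 2-fold higher, 2 were lower, 1 lay within 2-fold and JOX1 had too few reads for a ratio. The median over the 11 was 2.33 on the log2 scale. The jasmonic acid hydroxylases JOX2 and JOX3 were 20.4-fold (16.4 to 25.6) and 19.1-fold (15.9 to 23.3) higher, and JOX4 had 862 reads for mp clv3 and 4 for WT, a ratio of 212 (58.5 to 1760.0). Picked out after their values were seen, CYP94B3, which oxidises the isoleucine conjugate, was 17.1-fold higher (10.6 to 27.6), and IAR3 and ILL6, which cleave it, were 3.25-fold (3.09 to 3.42) and 3.44-fold (3.19 to 3.71) higher. The 2 lower genes were JMT, which makes methyl jasmonate, with 6 reads for mp clv3 and 697 for WT, and the transporter gene ABCG16, 4.25-fold lower (3.61 to 5.04).

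MYC2 (AT1G32640, chromosome 1, 11798119 to 11801407 on the minus strand, 1 exon), the bHLH factor that JAZ proteins hold back, had 37451 reads for mp clv3 and 5891 for WT. Its level was 166 RPKM (163.9 to 168.7) in mp clv3 against 26.5 RPKM (25.6 to 27.5) in WT, 6.27-fold higher (6.03 to 6.52). Only 3.94% of the 23060 models had a higher ratio, and by level MYC2 stood at place 670 of all models in mp clv3 and 5831 in WT. In RefSeq's TAIR10.1 models, the span of MYC2 shares 3241 bases with AT1G32630 on the opposite strand. AT1G32630 had 1380 reads for mp clv3 and 932 for WT. The RefSeq transcripts have 98.5% of the 100-base words of MYC2 in common, read on either strand. The deposited reads and RPKM imply a counted MYC2 model of 2179 bases, against 3289 bases in RefSeq. How far the counted models overlap is not known. The libraries were strand-specific per the labels, but whether strand was used in counting is not stated, so some reads of either gene may belong to the other. The related factors MYC3 and MYC4 lay within 2-fold, with log2 ratios of 0.59 (0.54 to 0.64) for MYC3 and 0.70 (0.59 to 0.82) for MYC4, and were picked out after their values were seen. MYC2 was 2.13 times MYC3 in mp clv3 and 0.511 times MYC3 in WT, so their order was turned.

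Of the 10 listed genes of perception and MYC2 partners, 1 was at least 2-fold higher, 1 was lower and 8 lay within 2-fold. The higher gene was JAM1, a bHLH repressor that competes with MYC2, at 2.31-fold (2.15 to 2.48), and the lower gene was MYC5, with 2 reads for mp clv3 and 55 for WT and picked out after its values were seen. COI1, the receptor, was at 22.4 RPKM in mp clv3 against 18.6 RPKM in WT. The JAZ repressor genes, which MYC2 itself activates, were at least 2-fold higher in 7 of 12 cases and at least 2-fold lower in none, and their median log2 ratio was 1.499. JAZ5 stood at 99.5 RPKM in mp clv3 against 10.4 RPKM in WT, JAZ3 at 59.1 against 8.01 RPKM, and JAZ8 at 7.03 against 0.975 RPKM, log2 ratios of 3.26, 2.88 and 2.85.

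VSP1 (AT5G24780, chromosome 5, 8507590 to 8509201) and VSP2 (AT5G24770, chromosome 5, 8500468 to 8502224) lie in tandem on the minus strand, 5365 bases apart with 1 annotated pseudogene between them. They encode acid phosphatase-like proteins that store amino acids and also act against insects. VSP1 had 175622 reads for mp clv3 and 419532 for WT, the highest level of the 10 genes in both genotypes. VSP1 was at 1582 RPKM (1572 to 1593) in mp clv3 against 3834 RPKM (3818 to 3851) in WT, 2.42-fold lower (2.40 to 2.44). By level VSP1 stood at place 12 of all models in mp clv3 and place 6 in WT. VSP2 had 23399 reads for mp clv3 and 96937 for WT. VSP2 was at 160.0 RPKM (157 to 163) in mp clv3 against 672 RPKM (666 to 678) in WT, 4.20-fold lower (4.12 to 4.29), and stood at place 701 in mp clv3 and 104 in WT. The ratio of VSP1 to VSP2 was 9.89 in mp clv3 and 5.70 in WT, so the genes of the pair were lower by unequal factors. Together they took 0.193% of all reads in mp clv3 and 0.507% in WT.

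The sequences of the VSP pair are given because similar copies can share reads and because both genes of the pair were lower. The aligned parts of their transcripts are 88.7% identical, no word of 100 bases is common to both, and 5 words of 50 bases are. Those words form a coding run of 54 bases, at chr5:8508594-8508647 in VSP1 and chr5:8501564-8501617 in VSP2, on the minus strand of TAIR10.1:
VSP1 and VSP2: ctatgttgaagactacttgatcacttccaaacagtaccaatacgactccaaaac
The 250 bases upstream of the annotated starts, from RefSeq's TAIR10.1 genome and written along the minus strand, are at chr5:8509202-8509451 for VSP1 and chr5:8502225-8502474 for VSP2. Capitals mark the 4 runs of at least 12 bases that both windows hold, which cover 66 bases or 26.4% of each window:
VSP1: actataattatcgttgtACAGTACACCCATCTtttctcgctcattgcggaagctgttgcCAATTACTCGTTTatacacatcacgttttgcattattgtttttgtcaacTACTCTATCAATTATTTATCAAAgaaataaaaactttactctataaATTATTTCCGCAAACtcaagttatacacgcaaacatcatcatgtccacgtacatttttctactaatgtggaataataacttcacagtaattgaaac
VSP2: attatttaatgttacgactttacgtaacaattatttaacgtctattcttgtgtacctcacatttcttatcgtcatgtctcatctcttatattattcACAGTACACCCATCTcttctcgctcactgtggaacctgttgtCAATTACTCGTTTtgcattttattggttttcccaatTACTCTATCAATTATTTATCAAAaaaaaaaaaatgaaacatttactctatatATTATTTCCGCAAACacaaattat
The 4 runs stand in the same order in both windows. The last of them lies closer to the annotated start in VSP2 than in VSP1.

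The letters CACGTG (the G-box, which MYC2 binds; it reads the same on both strands) were found in 1 of the 10 upstream windows, that of AOS, and in 6.49% of the 27443 windows of nuclear protein-coding genes. The AOS window is shown because it holds that match, in capitals, starting 6 bases before the annotated start, at chr5:17099596-17099845 on the minus strand:
AOS: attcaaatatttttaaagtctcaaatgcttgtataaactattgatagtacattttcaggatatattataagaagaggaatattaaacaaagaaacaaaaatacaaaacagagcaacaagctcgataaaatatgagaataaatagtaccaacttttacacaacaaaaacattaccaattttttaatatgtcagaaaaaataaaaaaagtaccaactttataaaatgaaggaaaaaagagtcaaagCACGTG
Of the letters of auxin response elements, searched on both strands, TGTCTC was in 1 of the 10 windows (VSP2) against 10.9% of all windows, and TGTCGG was in 0 of 10 against 4.16%. These are matches of letters in windows of 250 bases, not sites.

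LOX2, VSP1 and VSP2 are known for high levels in green tissue, and VSP1 and VSP2 also mark jasmonate response in flowers. Markers of green tissue were lower in mp clv3, and so were the floral gene AP1 and all 10 anther tapetum markers. Of all 23060 models, 13204 were lower to any degree and 23.8% were at least 2-fold lower. All 12 green tissue markers were lower in mp clv3, and 7 passed the cutoff of 2-fold. Their median log2 ratio was -1.82, and none stood at 0 reads. Their summed level was 4117 RPKM in mp clv3 against 10800 RPKM in WT. Single markers ranged from -5.59 for RBCS2B to -0.35 for LHB1B1 on the log2 scale. LOX2 at -2.41, VSP2 at -2.07 and VSP1 at -1.28 lie in that range. The range is so wide that lower genes of other lists, such as KNAT1 and ABCG16, lie in it too. A place within it therefore does not set LOX2, VSP1 and VSP2 apart from other lower genes. RBCS1B and RBCS3B, Rubisco small subunit genes like RBCS2B and close copies whose reads may be split, were 18.9-fold (17.6 to 20.2) and 17.4-fold (16.9 to 17.9) lower. The part of tissue make-up in the lower LOX2 and VSP levels was not tested. Among 7 listed relatives of the VSP genes, AT4G25150 was 2.37-fold higher (2.18 to 2.58) and AT5G44020 was 123-fold lower (68.7 to 248). AT4G29270, picked out after its values were seen, was 2.69-fold lower (1.97 to 3.71), while 3 lay within 2-fold and AT2G38600 had too few reads. These few genes, too, stand beside shares of 11.5% higher and 23.8% lower over all models.

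Most other listed jasmonate response genes were higher in mp clv3, unlike the VSP pair. Of 7 listed genes of the branch driven by MYC factors, 4 were at least 2-fold higher, 1 was lower and 2 lay within 2-fold, with a median of 1.57 on the log2 scale. TAT3, a tyrosine aminotransferase gene induced by jasmonate, had 19727 reads for mp clv3 and 174 for WT, a ratio of 112 (90.5 to 140). The NAC factor gene ANAC055 was 5.84-fold higher (4.77 to 7.22). HPL1, a hydroperoxide lyase gene, was 4.08-fold lower (3.81 to 4.37). JR1, a jacalin-like lectin gene picked out after its values were seen, was at 697 RPKM in mp clv3 against 221 RPKM in WT.

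Of 7 genes of the branch driven by ethylene response factors, 6 were at least 2-fold higher and ORA59 lay within 2-fold, and the median log2 ratio was 3.40. The defensin gene PDF1.2 had 472 reads for mp clv3 and 0 for WT. It was 77.6-fold higher against the floor of 6 reads, and 62.6-fold at the lower end of its counting interval. ERF1B, a transcription factor gene of jasmonate and ethylene signals, and HEL, a hevein-like gene, were 42.5-fold (22.2 to 93.6) and 14.0-fold (10.4 to 19.3) higher. Over the 87 listed pathway genes outside the 10, 86 were in the table and 82 had enough reads. Of these 82, 36 were at least 2-fold higher and 10 at least 2-fold lower, and their median log2 ratio was 0.66. Over all 23060 models the shares were 11.5% higher and 23.8% lower.

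**Figure D4:**
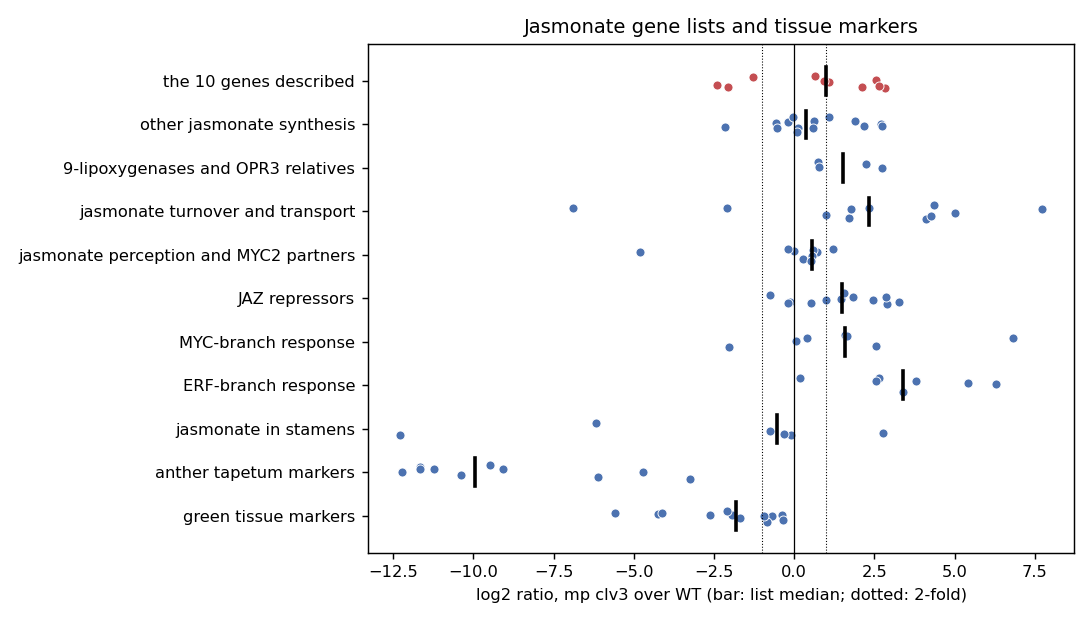
The log2 ratio of mp clv3 over WT for each gene of the jasmonate lists and of 2 tissue marker lists, with a bar at each list's median and dotted lines at 2-fold. Medians of the turnover and ERF-branch lists were 2.33 and 3.40, and those of the tapetum and green tissue markers were -9.94 and -1.82.

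Jasmonate acts in stamens, and stamen genes were examined beside the synthesis genes. The factors MYB21, MYB24 and MYB57, which act below jasmonate in filaments, had 0 reads in mp clv3 and 10, 1 and 2 reads in WT. ARF6 and ARF8, auxin response factors that floral jasmonate synthesis depends on, were at 106 and 53.7 RPKM in mp clv3 against 114 and 67.3 RPKM in WT, within 2-fold, and were picked out after their values were seen. The stamen and petal identity genes AP3 and PI were lower, AP3 with 2 reads for mp clv3 and 9839 for WT, and PI with 157 for mp clv3 and 11140 for WT. PAN, a bZIP factor gene of the floral meristem, was 6.74-fold higher (6.29 to 7.21). All 10 anther tapetum markers were at least 2-fold lower, with a summed level of 13.9 RPKM in mp clv3 against 741 RPKM in WT and with MS2 and DYT1 at 0 reads in mp clv3. LAP6, picked out after its values were seen, made up 13.4 RPKM of that sum in mp clv3. It had 1811 reads for mp clv3 and 17059 for WT. A9, CYP704B1 and ACOS5 had 2, 3 and 8 reads for mp clv3 and 9477, 9658 and 25361 for WT. DAD1, AOS, OPR3 and, jointly, LOX3 and LOX4 are needed for fertile stamens, and all 5 were higher in mp clv3. The part of tissue make-up in their higher levels was not tested.

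By level per length, the order of the 10 genes in mp clv3 was VSP1, MYC2, VSP2, OPR3, LOX2, AOS, JAR1, LOX4, LOX3 and DAD1. In WT it was VSP1, VSP2, LOX2, OPR3, MYC2, JAR1, LOX3, AOS, LOX4 and DAD1. The counting intervals of LOX4 and LOX3 in mp clv3 overlapped, and those of all other neighbours in either order did not. VSP1 led and OPR3 was the fourth in both genotypes, while MYC2 stood above VSP2 and LOX2 in mp clv3 and below them in WT. MYC2 and VSP2 were close in mp clv3, at 166 and 160 RPKM. Their order there also depends on model length, which the intervals leave out. The counted MYC2 model was 2179 bases, against 3289 bases in RefSeq. VSP1 was 9.51 times MYC2 in mp clv3 and 144.5 times MYC2 in WT. Whether this order would hold in each replicate could not be examined.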

How the data were processed

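Messenger RNA of inflorescence shoot apices was sequenced in 4 samples, 2 labelled mp clv3 and 2 labelled WT, as paired reads of 100 bases from strand-specific libraries, per the labels' protocols. CASAVA 1.7, BWA and TAIR10 appear, without roles, in the submitters' processing notes. The deposited read numbers are used as estimated counts, with the authors' 0.5 set back to 0. The deposited RPKM values scale these reads by model length and total, and the deposited log2 ratio equals that of the RPKM columns within 1e-06 for all 22151 models with reads in both. The FDR, an adjusted p-value deposited by the authors, comes from an unstated test. Of 27323 rows, 1 with cells out of register with the header was left out.

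The read numbers hold an excess of models with 2 reads (717 in mp clv3, 744 in WT) over models with 1 (99 and 105), so intervals were taken on read pairs. Ratios are of reads over the genotype total, with an exact Clopper-Pearson 95% interval that holds counting error only, checked on simulated counts. Where 0 reads were listed, 6 reads (3 pairs) were used. The ratio is then a bound against that floor only, and the lower end of the counting interval can lie below it. The 4262 models with 6 or fewer reads in both genotypes got no ratio. Other scalings used edgeR 4.0.16 (TMM) and DESeq2 1.42.0 (size factors). Tables were read with pandas 2.3.3 in Python 3.11.15, intervals came from scipy 1.17.1 and alignments from Biopython 1.88.

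The 10 genes and the 13 other lists, which hold 126 loci with the 10 (125 in the table), were chosen with earlier results of these data known. Symbols were matched in RefSeq's TAIR10.1 table for 111 of the 119 loci given a symbol. From each other list, up to 3 genes with the largest ratio past 2-fold and at least 5 RPKM in either genotype were named. MP and CLV3 were named for the genotype, and all further genes outside the 10 were named after their values were seen. Coordinates and sequences are RefSeq's TAIR10.1, and the table itself holds no coordinates. Protein sequences were not used here, and upstream windows were read from the genome because no table of them was used. AG was not analysed here.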

Additional observations from a re-analysis of the deposited data

How the results depend on the processing

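No paired analysis was possible because the table has no values per replicate, and for the same reason no replicate could be left out. Over the 60 values of the 10 ratios under other scalings and pseudocounts, 0 changed direction and 27 moved past their counting interval. The 0 is no check, because a pseudocount added to both levels cannot turn a ratio. The scalings moved all ratios alike, by at most 0.10 on the log2 scale, and the smallest ratio was 0.64 for LOX3. TMM and DESeq2's size factors moved all ratios by 0.09 and 0.10 on the log2 scale, and the count of the 10 genes at least 2-fold higher was then 6, with JAR1 added. Requiring 1 RPKM, or adding 5 RPKM, left 4, without DAD1. The count of lower genes was 3 under all 6 settings. The median of the 10 was 0.73 with a pseudocount of 1 RPKM and 0.60 with 5 RPKM. DAD1, with 43 reads, was at 2.21, 0.45 and 0.10 with pseudocounts of 0.1, 1 and 5 RPKM. Intervals on single reads were 0.705 to 0.707 times as wide. Of 120 counts for the other pathway lists, 12 moved by over 1.5 times and by at most 3 genes, 9 of them with the pseudocount of 5 RPKM. Models at least 2-fold higher and lower over the whole table numbered 2662 and 5483, against 2929 and 5083 with TMM, 1846 and 2942 with 1 RPKM added, and 1161 and 1464 with 5 RPKM added. The depth limits DAD1 and the genes with under 100 reads, and the missing replicate values limit every comparison.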
